A study of Mus musculus with 18 samples.

Results

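Primordial germ cell-like cells (PGCLC) sorted after 3 days of induction were compared between mouse cells labelled Esrrb KO and WT. The comparison rests on 6 of the 18 libraries of the study, 3 KO and 3 WT, chosen by the stage and genotype in their labels. The cells were SGET embryonic stem cells of B6CBA/129 background, with reporters for Dppa3 (Stella) and Dppa5a (Esg1), and were kept in 2i/L medium on gelatin. They passed through epiblast-like cells (EpiLC), which activin A at 20 ng/ml and bFGF at 12.5 ng/ml had produced, before induction with BMP4 at 500 ng/ml, LIF at 1000 U/ml, SCF at 100 ng/ml, BMP8a at 500 ng/ml and EGF at 50 ng/ml. Both genotypes had the reporters, the cytokines and the same sort, which took cells with Stella reporter signal and low Esg1 reporter signal. WT libraries are numbered 1, 2 and 3, and KO libraries are named A5, B1 and A2, names that recur at every stage and are taken here as KO lines. The sample titles name A2 as KO2 instead, and A2 and KO2 are taken as the same line. The labels do not give the deleted part of Esrrb, how the KO lines were made, or whether WT replicates were separate cultures. P-values therefore measure only the spread between these libraries, which for WT may be technical. Unsorted EpiLC and late PGCLC (sorted after 5 days, with day 6 in some descriptions), again 3 KO and 3 WT libraries each, serve only to show where the day 3 difference departs from theirs.

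Esrrb is an orphan nuclear receptor that binds DNA at an extended half-site and belongs to the transcription factor circuit of naive embryonic stem cells, with Nanog, Klf4 and Tfcp2l1. Primordial germ cells arise from epiblast cells that receive BMP and WNT signals. They switch on Prdm1, Prdm14 and Tfap2c, regain part of the naive circuit and lower the de novo DNA methyltransferases.

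RNA was poly(A)-selected and counted per gene, and the day 3 libraries held 3032965 (KO B1) to 5286330 (WT 2) counts. Levels below are CPM, counts scaled to a fixed library total, here the TMM-adjusted one. Log2 fold changes are KO against WT ± SE from an edgeR quasi-likelihood fit of all 18 libraries, with Benjamini-Hochberg adjusted p over 12856 tested genes. A gene is called where that adjusted p is under 0.05, and rose and fell are kept for called genes. Counts of WT pairs differed little beyond counting noise: chi-square over its degrees of freedom was 1.156 to 1.383. It was 3.948 to 12.9 between KO libraries. On the second principal component (22.32% of the variance of the day 3 libraries) KO A2 lay at 32.84, against -23.16 and -26.26 for KO A5 and B1. Whole chromosomes also differed between lines. Tested genes of chromosome 16 had a median log2 ratio to the WT mean of -0.445 in both KO B1 and KO A2, and of 0.035 in KO A5. KO A2 alone stood at 0.283 on chromosome 1 and at -0.445 on chromosome 11. On chromosome 8 all KO libraries were below the WT mean, from -0.186 to -0.125, and 69 genes were called lower there against 13 higher. Calls numbered 35 lower and 5 higher on chromosome 16, 32 and 29 on chromosome 1, and 48 and 38 on chromosome 11. Over all tested genes they numbered 666 lower and 643 higher. On chromosome Y, over 5 genes, KO A5 stood at -1.372, KO B1 at 0.917 and KO A2 at -4.940, and no named gene lies there. The part of these shifts in single genes was not tested, and genes on chromosomes 1, 8, 11 and 16 are marked as such.

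**Figure D1:**
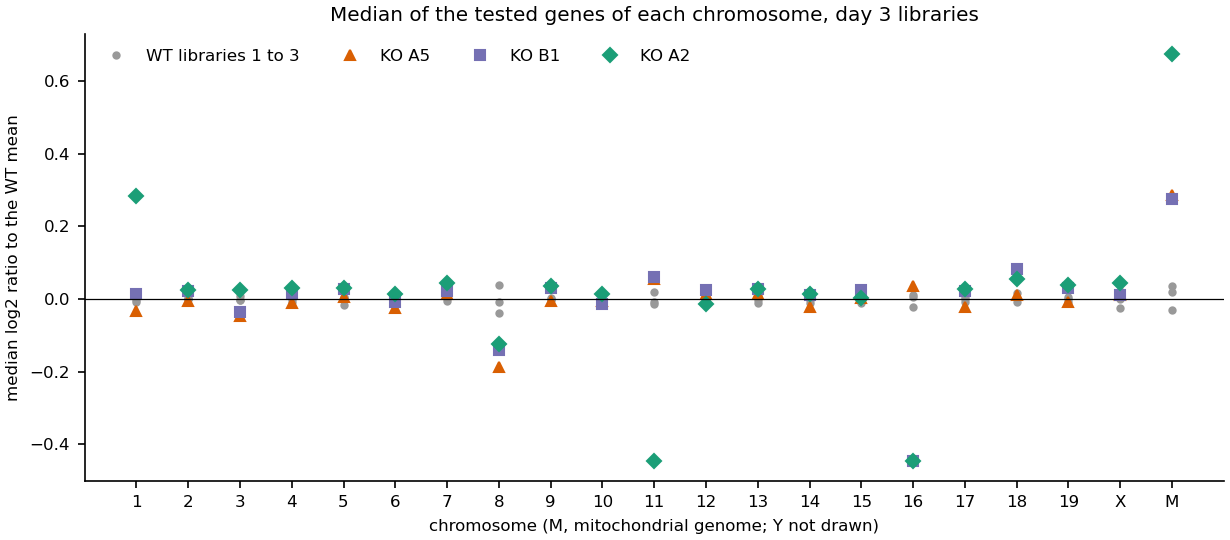
Median log2 ratio to the mean of the WT libraries (vertical axis) over the tested genes of each chromosome (horizontal axis), 1 point per day 3 library, with grey circles for WT and coloured symbols for KO. KO A2 stands apart on chromosomes 1 and 11, KO B1 and KO A2 on chromosome 16, and all KO libraries lie below 0 on chromosome 8 and above it in the mitochondrial genome. Chromosome Y is not drawn.

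Esrrb itself (ENSMUSG00000021255, chromosome 12, 86361117 to 86521628 on the plus strand of GRCm38) was at 627, 589 and 612 CPM in WT and at 162, 165 and 91.5 CPM in KO A5, B1 and A2. Every KO library lay below every WT library, with a log2 fold change of -2.13 ± 0.43 (adjusted p = 0.00554, edgeR). Its transcript remained in each KO library. Counts are for the whole gene and the deleted part is not given, so this level does not measure the protein.

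The day 3 transcriptomes differed in both directions: 1309 of 12856 tested genes were called (10.2%), of which 643 were higher in KO (5.00%) and 666 lower (5.18%). Of them, 484 differed by at least 1 on the log2 scale and 145 by at least 2. In 1300 of the 1309 called genes the KO and WT libraries did not overlap. Over all tested genes all KO libraries lay above all WT libraries in 18.3% and below them in 18.3%. Where separate groups are given below for called genes, they come with the call and add no support to it. In genes not called, they stand beside these shares of all tested genes. The median log2 fold change of all tested genes was 0.0119. The number called was 1463, 849 and 816 without KO A5, B1 and A2, and 692, 621 and 674 without WT 1, 2 and 3. It was 2716 without line A2 at all 3 stages, and 2184 with a fixed replicate block for KO line and WT number. Here and below, fewer cells that express a gene and less RNA per cell cannot be told apart in bulk libraries.

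**Figure D2:**
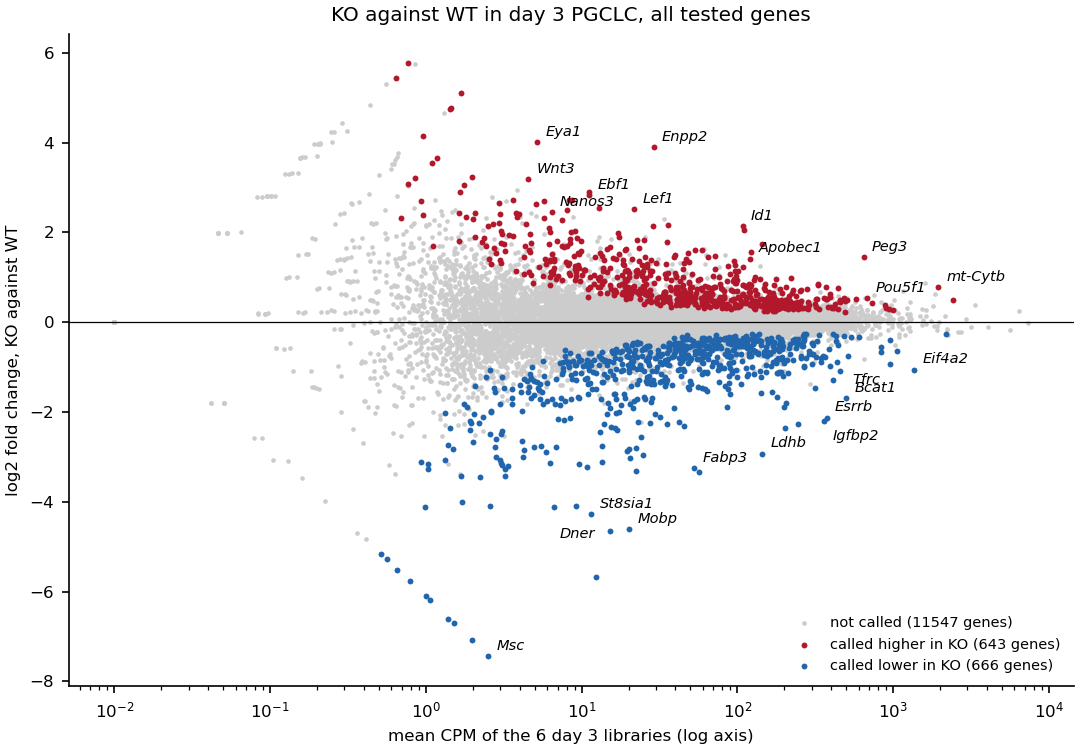
Log2 fold change of KO against WT (vertical axis) against the mean CPM of the 6 day 3 libraries (log axis), 1 point per tested gene, red where called higher (643) and blue where called lower (666). Enpp2 and Lef1 stand among the genes called higher, Dner, Mobp and Ldhb among those called lower. Fitted values of genes without counts in a group, such as Msc, depend on the prior count.

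Genes of naive pluripotency were lower in KO PGCLC: of 25 tested members, 8 fell and 0 rose, with a median log2 fold change of -0.634. The count includes Esrrb, by which the groups were defined. Over all tested genes 5.18% fell and 5.00% rose. The orphan receptor gene Nr0b1 (Dax1) was at 32.1, 24.9 and 23.0 CPM in WT and at 9.12, 4.30 and 5.61 CPM in KO A5, B1 and A2 (log2 fold change -2.03 ± 0.36, adjusted p = 0.00234). Klf4, a Krüppel-like factor of the naive circuit, was at 152, 128 and 123 CPM in WT and at 29.5, 32.4 and 46.1 CPM in KO (-1.90 ± 0.36, adjusted p = 0.0041). Every KO library of both genes lay under every WT library. Fgf4, an FGF ligand of naive cells, stood at 311, 315 and 313 CPM in WT and at 70.2, 75.1 and 107 CPM in KO (adjusted p = 0.00608). The junction protein gene Jam2, on chromosome 16, stood at 88.4 to 94.2 CPM in WT and at 38.0, 37.4 and 22.4 CPM in KO A5, B1 and A2. The part of the chromosome 16 shift of KO B1 and KO A2 in this level was not tested. The AKT co-activator gene Tcl1 (13.9 to 19.6 against 6.62 to 8.92 CPM), the lysosomal mannosidase gene Manba (150 to 174 against 57.1 to 82.8 CPM) and Sox2 also fell. The call of Tcl1 ended without KO B1 or WT 2 (adjusted p as high as 0.0676) and that of Manba without any 1 KO library or any 1 WT library (adjusted p as high as 0.174) and with the fixed replicate block.

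Other core genes of the circuit did not pass. Nanog was at 822 to 848 CPM in WT and at 515, 379 and 519 CPM in KO A5, B1 and A2 (log2 fold change -0.82 ± 0.34, adjusted p = 0.138). Tfcp2l1, on chromosome 1, was at 413 to 436 CPM in WT and at 115, 129 and 247 CPM in KO (adjusted p = 0.117). The zinc-finger gene Zfp42 (Rex1), on chromosome 8, was at 193 to 238 CPM in WT and at 116 to 139 CPM in KO (adjusted p = 0.0691). For these genes all KO libraries were below all WT libraries, as in 18.3% of all tested genes. They passed with line and WT number as a random replicate block (limma-voom, adjusted p = 0.0347, 0.0172 and 0.035). They also passed in edgeR without line A2 at all stages (adjusted p = 0.00188, 0.000102 and 0.00952), a setting that called 2716 genes. On leaving out 1 day 3 library their adjusted p was as high as 0.325, 0.267 and 0.208 (edgeR). Tbx3 spread the KO libraries around WT instead, at 31.5 CPM in A5, 68.8 CPM in B1 and 165 CPM in A2, with WT at 89.8 to 114 CPM. The Krüppel-like factor genes Klf2, on chromosome 8 (428 to 442 against 291 to 530 CPM), and Klf5 (72.7 to 84.5 against 65.8 to 82.8 CPM) had overlapping groups and log2 fold changes of -0.01 ± 0.22 and -0.06 ± 0.44.

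**Figure D3:**
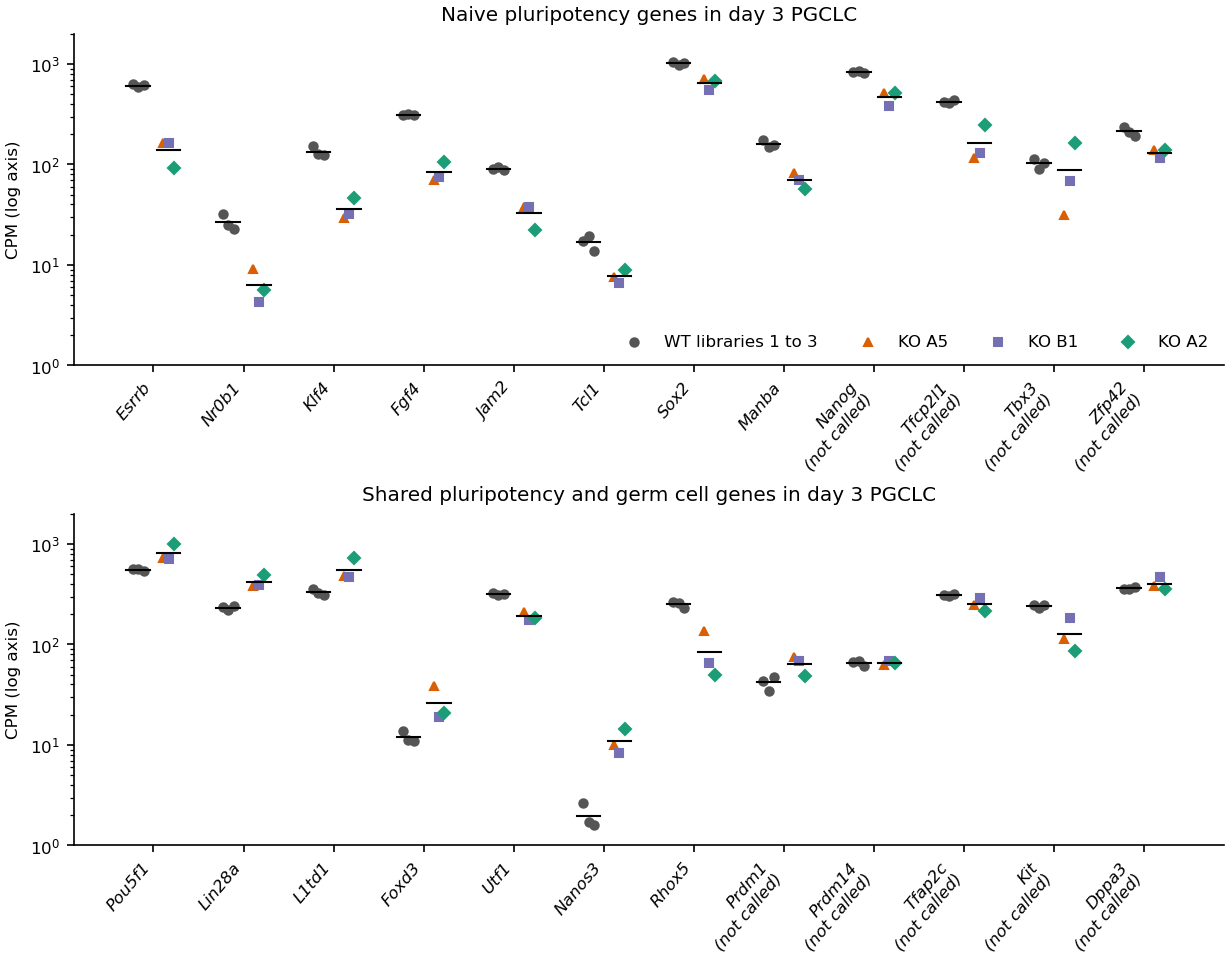
CPM on a log axis of naive pluripotency genes (upper panel) and of shared pluripotency and germ cell genes (lower panel) in each day 3 library, with dark circles for WT, coloured symbols for KO lines and black bars for group means. Esrrb, Nr0b1, Klf4 and Fgf4 are lower in every KO library, Nanos3 is higher in each, and Prdm14 and Dppa3 have overlapping groups.

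Genes that naive and primed cells share moved both ways, where called, with 4 of 15 higher and 3 lower (median 0.244). The shares of all tested genes were 5.00% higher and 5.18% lower. Pou5f1, which encodes Oct4, was at 565, 569 and 534 CPM in WT and at 718, 704 and 1000 CPM in KO (log2 fold change 0.54 ± 0.15, adjusted p = 0.0311). Sox2, its partner on DNA, went the other way, from 978 to 1047 CPM in WT to 703, 556 and 672 CPM in KO (-0.66 ± 0.16, adjusted p = 0.0172). The let-7 inhibitor gene Lin28a (223 to 241 against 380 to 489 CPM), the RNA-binding protein gene L1td1 (312 to 358 against 465 to 725 CPM) and the forkhead gene Foxd3 (10.9 to 13.8 against 19.2 to 38.2 CPM) rose. Utf1, a chromatin factor of pluripotent cells, fell from 312 to 326 CPM in WT to 175 to 210 CPM in KO (adjusted p = 0.000152). In each of these genes no KO library reached the WT range. The call of Pou5f1 ended without KO A2 or any 1 WT library (adjusted p as high as 0.160), that of Sox2 without KO B1, WT 1 or WT 3 (adjusted p as high as 0.0784) and that of Lin28a without KO A2 or WT 2 (adjusted p as high as 0.0635).

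As a check of the labelled cell type, germ cell specification factors were present in both genotypes, and the 5 described first did not pass. Prdm1 (Blimp1), a repressor that starts germ cell fate, was at 34.7 to 48.0 CPM in WT and at 75.0, 69.1 and 48.7 CPM in KO A5, B1 and A2 (log2 fold change 0.62 ± 0.26, adjusted p = 0.149). Prdm14, on chromosome 1, was at 61.1 to 68.2 CPM in WT and at 63.0 to 69.1 CPM in KO, with overlapping groups. Tfap2c was at 303 to 318 CPM in WT and at 214 to 290 CPM in KO (adjusted p = 0.624). The SCF receptor gene Kit was lower in every KO library, at 115, 184 and 85.4 CPM against 229 to 247 CPM, and missed the threshold (adjusted p = 0.0644), which it passed with the random replicate block (adjusted p = 0.0172). Dnd1, an RNA-binding protein gene of germ cell survival, was at 22.8 to 24.8 CPM in WT and at 23.9, 40.7 and 21.2 CPM in KO A5, B1 and A2 (adjusted p = 0.695). Dppa3 was at 355 to 371 CPM in WT and at 356 to 465 CPM in KO, and Dppa5a at 347 to 365 CPM and 193 to 260 CPM (adjusted p = 0.0954). Prdm1 and Dppa5a passed without line A2 (adjusted p = 3.92e-05 and 2.32e-07), and Dppa5a with the random replicate block (adjusted p = 0.0452). Since the gate selected on both reporters, no difference in state is read from this pair.

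Of 21 tested germ cell specification genes 1 rose and 3 fell (median 0.0648), against 5.00% and 5.18% of all tested genes. Nanos3, an RNA-binding protein that keeps germ cells alive, rose from 2.66, 1.70 and 1.59 CPM in WT to 9.99, 8.27 and 14.3 CPM in KO (log2 fold change 2.46 ± 0.40, adjusted p = 0.00156). It lies on chromosome 8, and the part of the shift of that chromosome in this level was not tested. Rhox5, a homeobox gene of the X chromosome, was at 231 to 266 CPM in WT and at 138, 65.8 and 49.7 CPM in KO A5, B1 and A2 (adjusted p = 0.0214). Its call ended without KO B1, KO A2, WT 1 or WT 2 (adjusted p as high as 0.110). Tcl1 and Sox2, the other genes of this list that fell, are in the naive list too. Of 22 late germ cell and piRNA genes the Tudor domain gene Rnf17 alone was called, with a rise from 122 to 131 CPM in WT to 160 to 174 CPM in KO (adjusted p = 0.00723). Dazl, a germ cell RNA-binding protein gene, stood at 31.6 to 35.5 CPM in WT and at 26.3, 17.9 and 12.7 CPM in KO without passing (adjusted p = 0.0943). Ddx4, an RNA helicase gene of germ cells, overlapped between groups (27.8 to 29.6 against 21.2 to 34.8 CPM).

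The deepest losses included Dner, Mobp, St8sia1, Grin1 and Msc. Dner, a Notch ligand-like receptor gene (ENSMUSG00000036766, chromosome 1, 84369839 to 84696221 on the minus strand of GRCm38), was at 27.5, 29.2 and 30.5 CPM in WT and at 1.30, 1.32 and 0.765 CPM in KO A5, B1 and A2. Its log2 fold change was -4.65 ± 0.59 (adjusted p = 0.000111). Mobp, a myelin protein gene, was at 38.2 to 39.4 CPM in WT and at 1.52 to 1.65 CPM in KO (-4.61 ± 0.25, adjusted p = 2.88e-08). KO libraries lay below all WT libraries in these and the next 2 genes, which the rule that chose them required. St8sia1, which encodes the sialyltransferase that makes ganglioside GD3, was at 22.9, 18.8 and 24.3 CPM in WT and at 1.74, 0.993 and 0.510 CPM in KO (adjusted p = 9.56e-07). Grin1, the obligate NMDA receptor subunit, was at 96.4 to 109 CPM in WT and at 9.26 to 11.7 CPM in KO (-3.33 ± 0.38, adjusted p = 5.73e-05). Msc (musculin, a helix-loop-helix repressor gene on chromosome 1) held 69 counts over the WT libraries and 0 over the KO libraries. Set against 3 counts over the group, the limit that a count of 0 allows, it was at least 19.4-fold lower.

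A pair of intracellular fatty acid binding protein genes fell, Fabp3 from 91.0 to 104 CPM in WT to 9.78 to 10.6 CPM in KO and Fabp5 from 36.6 to 45.8 CPM to 3.31 to 5.10 CPM (log2 fold changes -3.25 ± 0.42 and -3.32 ± 0.30). The transcription factor gene Sox21 (5.08 to 7.24 against 0.255 to 0.662 CPM), the secreted protein gene Ism2 (11.7 to 13.2 against 0.217 to 1.27 CPM) and Pcsk1n, which encodes an inhibitor of prohormone cleavage (16.6 to 23.0 against 1.65 to 2.55 CPM), fell as well. So did the adenylyl cyclase gene Adcy5, on chromosome 16 (5.00 to 7.24 against 0 to 1.65 CPM), and Traf1, a TNF receptor adaptor gene (4.90 to 7.0 against 0 to 1.30 CPM). Ly6a (Sca-1), at 16.1 to 18.5 CPM in WT, was at 2.39, 0 and 0.255 CPM in KO A5, B1 and A2. Aspa, a gene for the hydrolase of acetylaspartate on chromosome 11, was at 5.00 to 7.0 CPM in WT and at 1.52, 0 and 0 CPM in KO. The KO libraries lay below WT in each of these, which the rule that chose them required. The call of Ly6a ended without KO A2 (adjusted p = 0.0514) and that of Aspa without KO B1, KO A2 or any 1 WT library (adjusted p as high as 0.0839). At these low KO counts single libraries moved the log2 fold change by over 1.5-fold on the linear scale: without KO A5 it went from -4.27 to -4.87 for St8sia1, from -3.21 to -2.52 for Adcy5, from -3.18 to -5.02 for Traf1, from -4.08 to -6.67 for Ly6a and from -3.27 to -7.68 for Aspa. It went from -4.12 to -4.89 for Ism2 without KO A2 and to -4.51 for Adcy5 without KO B1. Where the remaining KO libraries have no count, as for Aspa, this value depends on the prior count.

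Promoter sequence is shown for genes that fell together with this DNA-binding receptor. RefSeq promoters (GRCm38.p6, 250 bases before to 50 after a start) were matched by symbol or synonym to 10140 of 12856 tested genes. They were searched on both strands for AAGGTCA, the core of the estrogen-related receptor half-site, and for TCAAGGTCA, a longer form that contains it. AAGGTCA stood in 391 of these 10140 genes (3.86%), in 19 of 495 called higher (3.84%) and in 20 of 526 called lower (3.8%). Among genes lower by at least 1 on the log2 scale it stood in 13 of 213 (6.1%), and among genes higher by as much in 3 of 157 (1.91%). TCAAGGTCA stood in 33 of 10140 (0.325%), in 3 of the genes called lower and in 0 called higher. These are counts of letters in a short window, without a test. The 250 bases upstream of the start are printed for 3 genes, 5′ to 3′ on the gene's strand, with matches to AAGGTCA or its reverse complement in capitals. Dner is shown as the lowest named gene with a match, Gjb1 (connexin 32) as a gene with the longer form, and Ldhb as an abundant gene that fell and has no match. Gjb1 lies outside the rule for named genes and was chosen after its values were seen: it was at 1.14 to 2.45 CPM in WT and at 0 to 0.255 CPM in KO (adjusted p = 0.0308), and its call ended without any 1 KO library, WT 1 or WT 2 (adjusted p as high as 0.135) and with the random replicate block (adjusted p = 0.0606).
Dner, chr1:84696222-84696471, minus strand: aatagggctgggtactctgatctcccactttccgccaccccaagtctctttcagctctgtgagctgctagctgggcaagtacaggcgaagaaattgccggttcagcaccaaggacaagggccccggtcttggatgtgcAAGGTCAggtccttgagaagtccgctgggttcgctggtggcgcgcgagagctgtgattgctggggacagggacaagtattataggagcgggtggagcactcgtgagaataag
Gjb1, chrX:101381868-101382117, plus strand: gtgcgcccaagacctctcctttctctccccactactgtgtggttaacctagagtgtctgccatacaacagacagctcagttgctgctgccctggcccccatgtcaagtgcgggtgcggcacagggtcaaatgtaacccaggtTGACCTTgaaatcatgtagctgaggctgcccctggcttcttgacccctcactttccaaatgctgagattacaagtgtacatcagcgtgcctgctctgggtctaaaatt
Ldhb, chr6:142507958-142508207, minus strand: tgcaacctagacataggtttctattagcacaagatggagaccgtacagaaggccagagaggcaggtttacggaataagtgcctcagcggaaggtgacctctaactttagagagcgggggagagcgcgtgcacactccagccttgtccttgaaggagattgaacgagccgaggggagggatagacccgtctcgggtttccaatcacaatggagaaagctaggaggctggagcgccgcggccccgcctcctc

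The capitals in Dner mark a forward match that begins 112 bases before the start, and those in Gjb1 a reverse match at 108 bases, part of the longer form. Another forward match in Dner begins 3 bases before the start and runs past it.

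The genes that rose most included Enpp2, Eya1, Ebf1 and Gap43. Enpp2, which encodes autotaxin, the enzyme that makes lysophosphatidic acid, was at 3.14, 3.58 and 4.09 CPM in WT and at 56.5, 62.5 and 44.1 CPM in KO (log2 fold change 3.90 ± 0.22, adjusted p = 2.88e-08). The transcription factor gene Ebf1, on chromosome 11, was at 2.45 to 3.18 CPM in WT and at 16.9, 12.9 and 29.1 CPM in KO A5, B1 and A2 (2.83 ± 0.52). The part of the chromosome 11 shift of KO A2 in this level was not tested. Gap43, a growth cone protein gene on chromosome 16, was at 1.51 to 2.96 CPM in WT and at 13.5, 7.28 and 22.2 CPM in KO (adjusted p = 0.00153). Eya1, a transcriptional co-activator gene on chromosome 1, was at 0 to 0.966 CPM in WT and at 4.78, 7.61 and 16.8 CPM in KO (log2 fold change 4.01 ± 0.92). No KO library overlapped WT in these genes, which the rule that chose them required. The call of Eya1 ended without KO A2 or WT 3 (adjusted p as high as 0.0582), and its log2 fold change without KO A2 was 3.33.

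Called higher as well were the G protein subunit gene Gna14 (2.05 to 2.45 against 9.68 to 24.2 CPM), the cyclic nucleotide phosphodiesterase gene Pde2a (3.39 to 4.32 against 16.6 to 28.5 CPM) and Calca, the gene of calcitonin and its related peptide (1.36 to 1.69 against 7.65 to 11.3 CPM). Vrtn (0.724 to 0.909 against 2.98 to 7.65 CPM), the nucleic acid sensor gene Zbp1 (0.966 to 2.05 against 5.10 to 10.9 CPM), the transglutaminase gene Tgm3 (0.483 to 1.14 against 3.31 to 8.04 CPM) and Rimbp2 (1.59 to 2.83 against 9.94 to 19.5 CPM) rose too. Lgals3bp, a secreted galectin-binding protein gene on chromosome 11, was at 27.4, 26.1 and 5.86 CPM in KO A5, B1 and A2, against 1.45 to 3.58 CPM in WT. Its call ended without WT 1 (adjusted p = 0.0564). With the random replicate block Eya1, Lgals3bp and Calca missed the threshold (adjusted p = 0.0567, 0.13 and 0.0567).

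Of the 14 named genes with the highest log2 fold changes, 6 stood at 27.9 CPM or more in each WT EpiLC library. The other 8 stood at 6.55 CPM or less, called low here. The share of all tested genes at such levels is not given here, and no retention of EpiLC expression is read from these numbers. Enpp2 was at 59.5 to 66.2 CPM in WT EpiLC, Gap43 at 37.0 to 42.5 CPM, Calca at 58.4 to 66.3 CPM and Pde2a at 27.9 to 34.1 CPM. Vrtn was at 61.1 to 72.4 CPM in WT EpiLC and Lef1 at 81.1 to 88.5 CPM. In contrast, Eya1 (1.04 to 2.62 CPM), Ebf1 (4.96 to 6.55 CPM, against 2.45 to 3.18 CPM in WT at day 3), Tgm3 (0.988 to 2.61 CPM) and Rimbp2 (2.09 to 4.46 CPM) were low in WT EpiLC. So were Zbp1 (1.84 to 2.09 CPM), Lgals3bp (0.494 to 1.83 CPM), Gna14 (0.261 to 0.524 CPM) and Wnt3 (0 to 0.782 CPM). Fgf5, an EpiLC marker, was at 49.6 to 66.1 CPM in WT EpiLC and overlapped between groups at day 3 (0.966 to 1.14 against 0.331 to 2.39 CPM). KO EpiLC held 22.4 to 27.0 CPM of Enpp2, 19.9 to 31.0 CPM of Gap43 and 12.6 to 41.9 CPM of Calca.

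Targets of WNT signalling were higher in KO cells where called: of 15 tested response genes 6 rose and 0 fell, with a median log2 fold change of 0.991. Over all tested genes 5.00% rose. Lef1, the factor that β-catenin joins at WNT targets, was at 6.28, 5.65 and 7.50 CPM in WT and at 29.1, 46.0 and 36.4 CPM in KO (2.51 ± 0.30, adjusted p = 7.01e-05). Tnfrsf19 (Troy), a receptor gene and WNT target, was at 13.9 to 17.1 CPM in WT and at 39.1, 28.5 and 31.3 CPM in KO (1.07 ± 0.19, adjusted p = 0.00194). The negative feedback gene Axin2, on chromosome 11, was at 22.2 to 24.3 CPM in WT and at 36.1 to 59.2 CPM in KO (0.99 ± 0.29). Sp5, a WNT-induced zinc-finger gene (0.753 to 1.21 against 3.26 to 5.10 CPM), and the cyclin gene Ccnd1 (25.7 to 31.2 against 57.8 to 82.4 CPM) rose as well. Groups did not overlap in these 5 genes, which for Lef1 the rule that chose it required. Cdx2, a caudal homeobox gene, stood at 0.217, 2.98 and 5.10 CPM in KO A5, B1 and A2 and at 0 to 0.188 CPM in WT, so that KO A5 was next to WT. It held 1 count over the WT libraries and 30 over the KO libraries, a ratio of 35.6 with a 95% interval for counting error of 5.92 to 1454. Its log2 fold change of 4.75 was 5.35, 3.84 and 6.54 without KO A5, KO A2 and WT 2, the last with no count left in WT. T (brachyury) was under the low-count filter, with 3 counts over WT and 19 over KO.

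Of 22 WNT ligand and receptor genes 4 rose and 0 fell (median 0.331), against 5.00% and 5.18% of all tested genes. Wnt3, a ligand that makes epiblast competent for germ cell fate, lies on chromosome 11 and was at 0.455 to 1.45 CPM in WT and at 2.61, 6.95 and 15 CPM in KO A5, B1 and A2 (3.18 ± 0.79, adjusted p = 0.017). Wnt5a (0 to 0.753 against 1.52 to 3.97 CPM) and its receptor gene Ror2 (25.6 to 29.9 against 34.8 to 48.7 CPM) rose, and the receptor gene Fzd4 was called with overlapping groups (0.455 to 0.966 against 0.662 to 4.08 CPM). Of 16 core pathway genes 0 rose and 2 fell: Gsk3b, the kinase that marks β-catenin for decay, on chromosome 16 (138 to 156 against 91.3 to 123 CPM), and the β-catenin antagonist gene Cby1 (23.0 to 25.8 against 16.9 to 18.9 CPM). Apart from those of Lef1 and Tnfrsf19, each call of this pathway ended on leaving out some single libraries. Those of Axin2, Sp5, Ccnd1, Cdx2, Ror2 and Gsk3b ended without KO B1, KO A2 or any 1 WT library (adjusted p as high as 0.216). That of Fzd4 ended without KO A5, KO A2 or any 1 WT library (adjusted p as high as 0.215), that of Cby1 without any 1 KO library or any 1 WT library (adjusted p as high as 0.139) and that of Wnt5a without KO B1, KO A2, WT 1 or WT 3 (adjusted p as high as 0.0878). Over the 6 fits that each left out 1 day 3 library, log2 fold changes ran from 0.78 to 1.14 for Axin2, 2.03 to 2.38 for Sp5, 1.20 to 1.45 for Ccnd1, 0.42 to 0.68 for Ror2, -0.63 to -0.40 for Gsk3b, -0.53 to -0.43 for Cby1 and 1.34 to 2.20 for Fzd4. Without WT 2 the log2 fold change of Wnt5a went from 2.90 to 4.30. Wnt3 lost its call without KO A2, WT 2 or WT 3 (adjusted p as high as 0.109) and stood at 2.36 without KO A2. With the random replicate block Wnt3, Ccnd1, Cdx2, Fzd4 and Cby1 missed the threshold (adjusted p = 0.0557, 0.0687, 0.145, 0.137 and 0.0632), and Cdx2, Fzd4 and Ror2 did so without line A2 (adjusted p = 0.067, 0.111 and 0.0664).

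Response genes of FGF and ERK signalling were mostly higher where called, with 6 of 21 higher, Ccnd1 among them, and Fgf4 lower (median 0.173, and 5.00% of all tested genes higher). Egr1, a zinc-finger gene that ERK switches on, was at 40.0 to 46.0 CPM in WT and at 133, 181 and 222 CPM in KO A5, B1 and A2 (log2 fold change 2.05 ± 0.27, adjusted p = 0.000189). Spry4, a feedback inhibitor of receptor tyrosine kinases, was at 24.1 to 26.6 CPM in WT and at 64.1 to 70.8 CPM in KO (1.40 ± 0.28, adjusted p = 0.00496). Another feedback inhibitor, Il17rd (Sef), was at 54.1 to 58.2 CPM in WT and at 121 to 152 CPM in KO. The immediate early genes Fos (22.5 to 29.8 against 49.8 to 77.4 CPM) and Ier2, on chromosome 8 (127 to 132 against 160 to 204 CPM), rose too, without overlap. Cell dissociation can raise Egr1, Fos and Ier2, and of 19 dissociation stress genes these were the 3 higher, with the chaperone gene Hsp90aa1 lower (1068 to 1101 against 763 to 877 CPM). That list had 16 members above 0 and 3 below on the log2 scale, with a median of 0.3. Its summed level was 2602 to 2613 CPM in WT and 2626 to 2631 CPM in KO, and its part in these results was not tested. The call of Fos ended without KO B1, KO A2 or any 1 WT library (adjusted p as high as 0.110) and that of Ier2 without KO A2 or any 1 WT library (adjusted p as high as 0.132).

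In the BMP and Nodal lists Id1, Id3 and Nodal rose, while 5.00% of all tested genes rose and 5.18% fell. Id1, a SMAD target that blocks helix-loop-helix factors, was at 38.2 to 40.8 CPM in WT and at 149, 155 and 224 CPM in KO (2.14 ± 0.30, adjusted p = 0.000345). Id3 was at 34.3 to 42.5 CPM in WT and at 76.0, 104 and 135 CPM in KO (1.47 ± 0.33). They were the called members among 13 BMP response genes (2 higher, 0 lower, median 0.242). Nodal, the ligand of the activin-type pathway, was at 15.5 to 16.4 CPM in WT and at 53, 31.8 and 78.2 CPM in KO (1.78 ± 0.42, adjusted p = 0.0132), as the 1 gene called of 13 (median 0.228). Of 15 LIF and STAT3 response genes Myc rose (7.73 to 11.9 against 22.2 to 45.6 CPM) and Klf4 fell. KO libraries did not overlap WT in Id1, Id3, Nodal and Myc. Groups overlapped for Lefty2, a Nodal antagonist gene on chromosome 1 (25.8 to 33.8 against 30.8 to 91.0 CPM, adjusted p = 0.173), for the T-box gene Eomes (10.7 to 13.3 against 7.61 to 15.6 CPM) and for Socs3, the feedback inhibitor of LIF signalling on chromosome 11 (125 to 140 against 106 to 160 CPM). The call of Id3 ended without WT 2 (adjusted p = 0.0568), that of Nodal without KO A2 or any 1 WT library (adjusted p as high as 0.0742) and that of Myc without KO A5, KO A2 or any 1 WT library (adjusted p as high as 0.141) and with the random replicate block (adjusted p = 0.0833).

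Genes of glucose use were lower in part: 7 of 30 fell and 0 rose, against 5.18% and 5.00% of all tested genes (median -0.192, against 0.0119 over all tested genes). Ldhb, a lactate dehydrogenase subunit gene, was at 246, 254 and 260 CPM in WT and at 37.2, 39.0 and 24.0 CPM in KO (log2 fold change -2.93 ± 0.23, adjusted p = 1.39e-06). Its sister subunit gene Ldha was at 1195 to 1266 CPM in WT and at 1068 to 1596 CPM in KO, which overlap. Hk1, which encodes a hexokinase that traps glucose, was at 315 to 321 CPM in WT and at 98.6, 115 and 61.2 CPM in KO (-1.80 ± 0.26). Pfkp, a phosphofructokinase subunit gene, was at 564 to 620 CPM in WT and at 270, 288 and 163 CPM in KO (-1.29 ± 0.22, adjusted p = 0.00175). Gpi1, of the glucose phosphate isomerase (1269 to 1316 against 643 to 948 CPM), Pgm1, of a phosphoglucomutase (107 to 121 against 49.2 to 70.0 CPM), the enolase gene Eno1 (504 to 571 against 410 to 460 CPM) and the pyruvate dehydrogenase kinase gene Pdk1 (231 to 234 against 149 to 173 CPM) completed the list. The groups of all 7 were separate, as they were in 666 of the 666 genes called lower. Eno1 lost its call without KO A5, KO B1 or any 1 WT library (adjusted p as high as 0.154) and Pdk1 without KO A2, WT 1 or WT 3 (adjusted p as high as 0.0628).

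The pyruvate and citrate cycle list, which includes aspartate transaminase genes, had 6 of 24 genes lower, against 5.18% of all tested genes, and 0 higher (median -0.149). Idh2, of the mitochondrial NADP-dependent isocitrate dehydrogenase, was at 269 to 275 CPM in WT and at 136, 109 and 111 CPM in KO (-1.19 ± 0.18, adjusted p = 0.000659). Got1, of the cytosolic aspartate transaminase, was at 216 to 244 CPM in WT and at 122 to 149 CPM in KO (-0.80 ± 0.09). The gene of its mitochondrial partner, Got2, on chromosome 8 (126 to 138 against 93.8 to 101 CPM), the succinyl-CoA ligase gene Sucla2 (137 to 139 against 88.4 to 96.6 CPM) and the NAD-dependent dehydrogenase genes Idh3a (196 to 202 against 137 to 158 CPM) and Idh3g (152 to 160 against 115 to 126 CPM) fell. No KO library reached the WT range in any of these 6 genes. The call of Got2 ended without KO A2, WT 1 or WT 2 (adjusted p as high as 0.0802).

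Respiratory chain genes of the nucleus and of the mitochondrial genome were called in opposite directions. Of 34 nuclear genes 4 fell and 0 rose (median -0.133), against 5.18% and 5.00% of all tested genes. They were the cytochrome oxidase gene Cox5a (230 to 238 against 147 to 160 CPM, -0.60 ± 0.10, adjusted p = 0.00166) and the ATP synthase genes Atp5b, Atp5c1 and Atp5d. Those of Atp5b, Atp5c1 and Atp5d were small, from -0.37 to -0.26, and their calls ended without WT 1 or WT 2 (adjusted p as high as 0.0641), any 1 KO library or any 1 WT library (adjusted p as high as 0.127) and KO A5, KO A2 or any 1 WT library (adjusted p as high as 0.152). Of 7 tested mitochondrial genes 3 rose and 0 fell (median 0.417), and 0 were called in late PGCLC. The other genes of the 13 listed, mt-Atp6, mt-Atp8, mt-Co2, mt-Co3, mt-Nd3 and mt-Nd4l, had 0 counts in all 6 day 3 libraries. They were not tested, and why they have no counts is not known. The cytochrome b gene mt-Cytb was at 1399 to 1494 CPM in WT and at 2005, 1966 and 3371 CPM in KO A5, B1 and A2 (adjusted p = 0.0108). The NADH dehydrogenase genes mt-Nd1 (2031 to 2042 against 2487 to 3477 CPM) and mt-Nd4 (587 to 653 against 740 to 1003 CPM) were highest in KO A2 too, and their calls ended without KO A2 or any 1 WT library (adjusted p as high as 0.178).

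**Figure D4:**
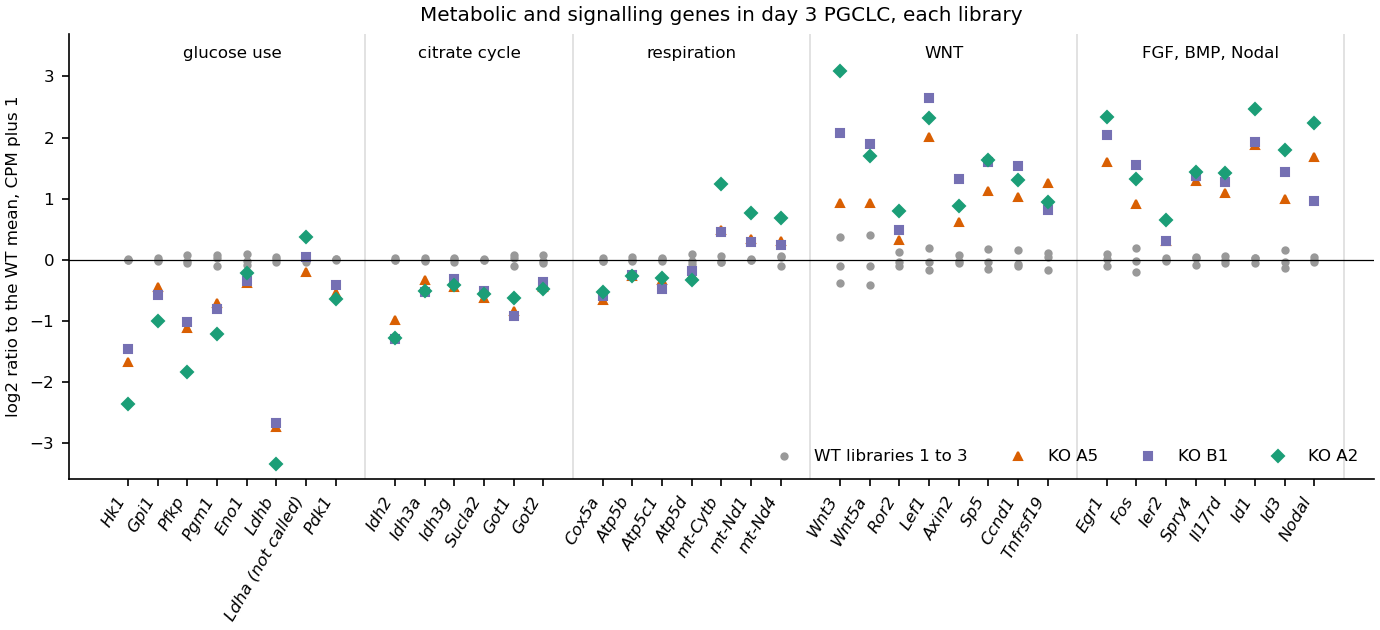
Log2 ratio of each day 3 library to the WT mean, computed on CPM plus 1 (vertical axis). Grey circles are WT and coloured symbols KO lines. The blocks are glucose use, the pyruvate and citrate cycle list, respiration, WNT signalling, and FGF, BMP and Nodal signalling. The block headed citrate cycle includes the transaminase genes Got1 and Got2. Apart from Ldha, only called genes were drawn, so the side of 0 on which each lies follows from its call. Fgf4, Gsk3b and Cby1, called lower, and Fzd4 and Cdx2, called higher, are not drawn. Among the genes drawn, KO libraries lie below 0 in the first 2 blocks except for Ldha, and above 0 in the 2 signalling blocks. The mitochondrial genes are highest in KO A2.

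By level, the largest losses included Eif4a2, Tfrc, Bcat1 and Igfbp2, and the largest gains Peg3. The translation initiation factor gene Eif4a2 was at 1809 to 1885 CPM in WT and at 1160, 847 and 648 CPM in KO A5, B1 and A2 (log2 fold change -1.05 ± 0.22, adjusted p = 0.00608). Tfrc, the transferrin receptor gene, was at 1252 to 1259 CPM in WT and at 832, 560 and 599 CPM in KO (-0.92 ± 0.19). Both lie on chromosome 16, and the part of the shift of that chromosome in KO B1 and KO A2 was not tested. Bcat1, which encodes an enzyme of branched-chain amino acid breakdown, was at 744 to 778 CPM in WT and at 221 to 246 CPM in KO (-1.69 ± 0.17, adjusted p = 1.99e-05). Igfbp2, an IGF-binding protein gene on chromosome 1, was at 571 to 604 CPM in WT and at 146, 74.8 and 161 CPM in KO (-2.21 ± 0.25). The imprinted zinc-finger gene Peg3 was at 331 to 355 CPM in WT and at 873, 832 and 1132 CPM in KO (1.45 ± 0.43, adjusted p = 0.0419). The RNA helicase gene Ddx5, on chromosome 11, was at 752 to 787 CPM in WT and at 967 to 1088 CPM in KO, and Spna2, of the spectrin family, at 472 to 491 CPM and 611 to 769 CPM. Groups were separate for each, which the rule that chose these genes required. The call of Peg3 ended without any 1 KO library or any 1 WT library (adjusted p as high as 0.146), that of Ddx5 without KO B1 or WT 3 (adjusted p as high as 0.0532) and that of Spna2 without KO B1, KO A2 or any 1 WT library (adjusted p as high as 0.134).

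Among 11 genes of DNA methylation enzymes 2 rose and 0 fell, against 5.00% and 5.18% of all tested genes (median 0.212). Dnmt3a, a de novo methyltransferase gene, was at 84.6 to 92.0 CPM in WT and at 138, 120 and 198 CPM in KO (log2 fold change 0.78 ± 0.16, adjusted p = 0.00554). The cytidine deaminase gene Apobec1 was at 62.1 to 68.9 CPM in WT and at 153 to 207 CPM in KO (1.42 ± 0.15, adjusted p = 2.7e-05). Dnmt3b was at 159 to 184 CPM in WT and at 220 to 311 CPM in KO, without overlap and without passing (adjusted p = 0.203). Uhrf1, which guides maintenance methylation, was at 248 to 267 CPM in WT and at 287 to 370 CPM in KO (adjusted p = 0.067). Tet1 (651 to 702 against 624 to 775 CPM), which encodes an enzyme that oxidises methylcytosine, overlapped, and the related gene Tet2 was lower in every KO library without passing (144 to 170 against 75.1 to 112 CPM, adjusted p = 0.338, or 0.000933 without line A2). Of 14 histone methyltransferase genes Nsd1 rose (291 to 296 against 393 to 488 CPM) and Ezh2, the Polycomb enzyme, fell (359 to 382 against 280 to 319 CPM). The call of Nsd1 ended without KO A2 (adjusted p = 0.0613) and that of Ezh2 without KO A5, KO A2 or any 1 WT library (adjusted p as high as 0.119). Of 19 formative epiblast genes 4 rose and 1 fell (median 0.272), with Sox4 at 11.6 to 13.2 CPM in WT and at 19.5 to 33.9 CPM in KO (1.17 ± 0.24, adjusted p = 0.00608). Dnmt3a, Foxd3 and the ETS factor gene Etv1 (0.942 to 1.82 against 3.04 to 7.90 CPM) are the others that rose, and the FGF gene Fgf15 fell (4.59 to 5.08 against 0 to 1.78 CPM). Etv1 lost its call without KO B1, KO A2 or any 1 WT library (adjusted p as high as 0.201) and Fgf15 without KO A5, KO B1 or any 1 WT library (adjusted p as high as 0.0966), with a log2 fold change of -2.78 that was -4.96 without KO A2. With the random replicate block Etv1 and Nr2c1 missed the threshold (adjusted p = 0.104 and 0.0937). Among 19 nuclear receptor and coactivator genes Nr2c1 rose (4.09 to 4.83 against 7.39 to 8.60 CPM) and Esrrb and Nr0b1 fell. The call of Nr2c1 ended without any 1 KO library or any 1 WT library (adjusted p as high as 0.130). Otx2, which holds cells in the epiblast state, was at 36.0 to 45.9 CPM in WT and at 31.1, 15.2 and 16.8 CPM in KO (adjusted p = 0.152).

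Adhesion genes were lower where called, with 5 of 18 lower, against 5.18% of all tested genes, and 0 higher (median -0.331). The laminin receptor subunit gene Itga6 was at 219 to 238 CPM in WT and at 103 to 145 CPM in KO (-0.84 ± 0.14, adjusted p = 0.00156). The laminin chain gene Lama1, from the endoderm list, was at 71.2 to 73.9 CPM in WT and at 21.7 to 28.5 CPM in KO (-1.50 ± 0.18). The cadherin genes Cdh1 (579 to 621 against 460 to 503 CPM) and Cdh3 (73.6 to 78.0 against 39.8 to 60.2 CPM), both on chromosome 8, and Icam1 (101 to 109 against 44.0 to 67.5 CPM) fell as well, and Jam2 is the other gene of the count. The call of Cdh1 ended without KO B1 or any 1 WT library (adjusted p as high as 0.0983), that of Cdh3 without KO A2 or WT 1 (adjusted p as high as 0.0516) and that of Icam1 without KO A5, KO B1, WT 1 or WT 3 (adjusted p as high as 0.0653). No KO library overlapped WT in these genes. Of 19 p53 targets 3 rose and 0 fell (median -0.00436, 9 above 0 and 10 below, with 5.00% of all tested genes higher), with the stress sensor gene Sesn2 at 83.2 to 89.6 CPM in WT and at 125 to 140 CPM in KO (adjusted p = 0.00516). The others were Trp53inp1 (250 to 281 against 372 to 386 CPM) and Zmat3 (158 to 164 against 195 to 224 CPM). Of 25 proliferation genes the ribonucleotide reductase gene Rrm2 alone was called, and fell (359 to 382 against 252 to 329 CPM). That list had a median of 0.105, with 21 members above 0 and 4 below, and summed to 7280 to 7468 CPM in WT and 7673 to 8773 CPM in KO. Trp53inp1 lost its call without WT 1 (adjusted p = 0.0584), Zmat3 without KO B1, KO A2 or any 1 WT library (adjusted p as high as 0.167) and Rrm2 without KO A5, KO B1 or any 1 WT library (adjusted p as high as 0.152). Of 19 cholesterol synthesis genes 0 rose and 0 fell.

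Markers of other cell types were counted for cells that the sort could let through. Their counts stand beside 5.00% higher and 5.18% lower over all tested genes. Of 11 tested endoderm genes 0 rose and 1 fell (median -0.0664, summed level 511 to 548 CPM in WT and 564 to 664 CPM in KO), and Foxa2, Afp and Cer1 were at 0 counts in all 6 libraries. Of 11 tested gastrulation mesoderm genes 2 rose, Lhx1, on chromosome 11 (1 count over WT and 31 over KO) and Eya1. Members under the low-count filter were mixed, with Mesp1, Msgn1 and Hoxb1 at 0 counts. Evx1 held 0, 1 and 0 counts in WT 1, 2 and 3 and 9, 7 and 10 in KO A5, B1 and A2. Fgf8 held 0, 1 and 0 against 3, 3 and 7, and T 2, 0 and 1 against 10, 1 and 8. Foxc1 (0, 3 and 5 against 0, 0 and 1) and Kdr (2, 1 and 1 against 2, 0 and 0) leaned the other way. The median of this list was 0.794 and its summed level 46.8 to 51.4 CPM in WT and 99.5, 74.4 and 120 CPM in KO A5, B1 and A2. The trophoblast list (14 tested, median 0.808, 10 above 0), with Cdx2 as its called gene, summed to 1004 to 1158 CPM in WT and to 1001, 1510 and 2548 CPM in KO. The fibroblast list had 0 of 10 higher and 0 lower, with a median of 0.868 and 8 above 0 (1189 to 1278 against 1239 to 1663 CPM), with Lum and Postn at 0 counts. Of 16 neural ectoderm genes Nes (36.7 to 37.7 against 56.1 to 70.8 CPM), Neurod1 (3 counts over WT and 18 over KO) and Gap43 rose, and Sox21 and Tubb3, on chromosome 8 (38.2 to 38.9 against 8.66 to 15 CPM), fell, with a list median of -0.321. For neuronal transmission and myelin 3 of 14 fell (median -0.175), which were Dner, Mobp and Grin1. Of 6 blood and endothelial genes Gata1 alone was called, and was lower (4.59 to 5.91 against 0.765 to 1.09 CPM, list median 0.168). The call of Gata1 ended without any 1 KO library or any 1 WT library (adjusted p as high as 0.0925), that of Lhx1 without KO A5, KO B1 or any 1 WT library (adjusted p as high as 0.139) and that of Neurod1 without KO B1, KO A2, WT 2 or WT 3 (adjusted p as high as 0.129). Tubb3 lost its call without KO B1, KO A2 or any 1 WT library (adjusted p as high as 0.0921) and Nes without KO B1 or any 1 WT library (adjusted p as high as 0.0612) or without line A2 (adjusted p = 0.0649). Tubb3 and Neurod1 missed the threshold with the random replicate block (adjusted p = 0.0753 and 0.182). Without WT 1 the log2 fold change of Lhx1 went from 4.77 to 6.58, with no count left in WT, and that of Neurod1 from 2.70 to 3.6. The part of other cell types in the results above was not tested.

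The 6 called genes in which KO libraries differed most from one another were Cdx2, Zfp423, Wnt3, Lgals3bp, Atp6v0a4 and Ifi35. Cdx2 and Wnt3 were lowest in KO A5 and Lgals3bp in KO A2, as given above. Zfp423, a zinc-finger cofactor gene on chromosome 8, was at 6.52, 4.63 and 25.7 CPM in KO A5, B1 and A2, against 2.26 to 2.73 CPM in WT. Atp6v0a4, a proton pump subunit gene, was at 10.2, 11.3 and 2.04 CPM in KO and at 23.4 to 26.8 CPM in WT. The interferon-induced gene Ifi35, on chromosome 11, was at 36.1, 41.0 and 9.68 CPM in KO and at 6.21 to 12.1 CPM in WT, so that KO A2 lay within the WT range. KO A2 was the library apart in these last 3 genes. Zfp423 lost its call without KO A2 or any 1 WT library (adjusted p as high as 0.223) and stood at 1.15 without KO A2, against 2.28. Ifi35 lost its call without KO A5, KO B1 or any 1 WT library (adjusted p as high as 0.172), and Atp6v0a4 without WT 1 or WT 2 (adjusted p as high as 0.0515). Zfp423 and Ifi35 missed the threshold with the random replicate block (adjusted p = 0.11 and 0.145).

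Late PGCLC of the same lines held most of the day 3 differences. There 2244 genes were called (17.5% of tested genes, 9.83% higher and 7.62% lower). Of the 1309 genes called at day 3, 954 were called in the same direction late (72.9%), 464 of 643 higher and 490 of 666 lower, and 0 in the opposite direction. These make up 36.7% of the late genes called higher and 50.0% of those called lower. Without line A2 the shared number was 1910, and with the fixed replicate block it was 1588. It was 571, 527 and 564 without WT 1, 2 and 3. Deviations of a KO line from the KO mean correlated between the stages over genes (0.352 to 0.588), so the late libraries are not an independent set of lines. No gene was called for a difference between the KO effect at day 3 and that in late PGCLC (0% of tested genes, edgeR), with 561 at an unadjusted p under 0.05. DESeq2 called 12, limma-trend 0 and edgeR without line A2 85. That test does not show that the effects are equal. Dner was at 0.765 to 1.32 CPM in KO at day 3 and at 0.204 to 2.80 CPM in late KO, Enpp2 at 44.1 to 62.5 CPM and 34.2 to 49.3 CPM, and Ldhb at 24.0 to 39.0 CPM and 21.3 to 37.3 CPM. Msc, at 0 in KO at day 3, was at 1.84 to 3.66 CPM in late KO and at 6.47 to 7.61 CPM in late WT.

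Few of the day 3 calls were also called before induction. In EpiLC 1424 genes were called (11.1%, 6.93% higher and 4.15% lower). Of the day 3 calls 121 (9.24%) were called in the same direction in EpiLC and 53 in the opposite one. For 847 genes (6.59% of tested genes) the KO effect at day 3 differed from that in EpiLC, 380 with a higher and 467 with a lower value at day 3, and 444 of them were among the day 3 calls. KO A2 of EpiLC held 39.8 CPM of Esrrb, above WT EpiLC (20.6 to 33.3 CPM), while KO A5 and B1 held 6.72 and 4.54 CPM. As the deleted part is not given, this transcript level does not test the label. Without line A2 the number was 1912, of which 785 were among the 847. With the fixed replicate block it was 1457, and with only the groups compared in the fit 456. It was 442, 361 and 380 without WT 1, 2 and 3 of day 3.

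Enpp2 was lower in KO EpiLC (59.5 to 66.2 CPM in WT against 22.4 to 27.0 CPM in KO, log2 fold change -1.31, adjusted p = 0.00189) and higher in KO at day 3, a difference of 5.21 (adjusted p = 3.47e-08). Dnmt3a was likewise lower in KO EpiLC (1391 to 1447 CPM in WT against 780 to 972 CPM in KO) and higher at day 3, a difference of 1.47 (adjusted p = 0.0014). Tnfrsf19, lower in KO EpiLC (23.3 to 26.9 against 11.6 to 17.4 CPM), differed by 1.89. St8sia1 stood at 1.98 to 3.13 CPM in WT and 2.86 to 3.94 CPM in KO EpiLC, and its day 3 effect differed by -4.71 (adjusted p = 4.31e-05). The differences of Fabp3, Hk1 and Ldhb were -4.84, -2.33 and -2.00, or -3.49, -1.59 and -2.05 without line A2. The KO A2 EpiLC library held 21.9 CPM of Fabp3, against 2.47 to 4.86 CPM in the other EpiLC libraries. It held 85.5 CPM of Hk1, against 33.35 to 40.63 CPM in the others. These 7 genes were also called without line A2.

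The lowest values of that contrast belonged to genes of which the EpiLC library of KO A2 held more than the other EpiLC libraries. Wnt7b, a WNT ligand gene, was at 92.9 CPM there, against 3.94 and 3.28 CPM in KO A5 and B1 and 0 to 1.05 CPM in WT EpiLC. At day 3 Wnt7b stood at 34.1 to 46.4 CPM in WT and 3.97 to 12.2 CPM in KO (difference -8.42, or -5.55 without line A2). The day 3 difference of Wnt7b itself missed the threshold (adjusted p = 0.117) and passed it without line A2 (adjusted p = 5.78e-08). Rin3 (36.0 CPM in that library, difference -7.48), Thbd (18.8 CPM, -7.46) and Serpinb6b (7.38 CPM, -7.20) shared that pattern. The calls of Thbd and Serpinb6b ended without line A2 (adjusted p = 0.62 and 0.0611). The highest values belonged to Rassf9, Slc35d3, Insc, Enpp2 and Car14. Rassf9 held 0 counts over the WT day 3 libraries and 14 over KO, at least 5.54-fold higher, and stood at 6.26 to 8.39 CPM in WT EpiLC. Car14, a carbonic anhydrase gene, was at 0.241 to 0.455 CPM in WT and 2.32 to 5.86 CPM in KO at day 3, and at 8.15 to 9.96 CPM in WT EpiLC, and its day 3 call ended with the random replicate block (adjusted p = 0.051). Insc and Slc35d3, with 0 counts in WT and 6 and 5 in KO at day 3, did not pass at day 3 itself, though Slc35d3 did without line A2 (adjusted p = 0.0133).

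**Figure D5:**
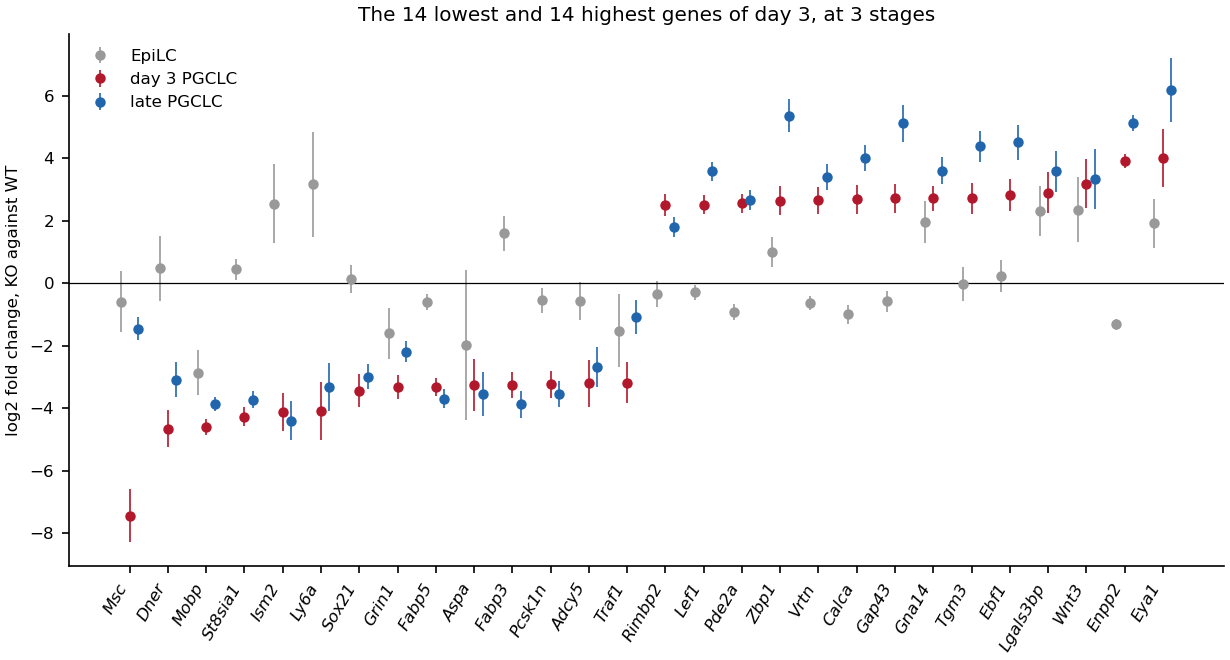
Log2 fold change of KO against WT (vertical axis, bars are SE) in EpiLC, day 3 PGCLC and late PGCLC for the 14 lowest and 14 highest named genes of day 3 (horizontal axis). Day 3 and late values lie on the same side of 0 for each gene, while EpiLC values lie on both sides, with Enpp2 below 0 in EpiLC and above it later. The day 3 value of Msc, without counts in KO, depends on the prior count.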

How the data were processed

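Messenger RNA of 18 libraries was sequenced. RNA was extracted with PicoPure and libraries were made with a directional poly(A) kit, per the labels' protocols. The authors deposited counts per gene (25965 rows) and CPM values, which equal counts divided by the library total and scaled, within 1e-06. Trim Galore 0.4.3.1 and the mm10 build (GRCm38.p4) appear in the submitters' processing notes. Aligner, counting tool and use of strand: not given in the sources used here. Reads of overlapping or antisense genes therefore cannot be told apart. Rows without a gene identifier (56, holding 0.0559% to 0.0828% of counts) were left out.

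The counts were fitted with edgeR 4.0.16 in R 4.3.3, with TMM factors (0.964 to 1.04), filterByExpr, robust quasi-likelihood and 6 group means for the 18 libraries, which share 1 estimate of the spread (common dispersion 0.0283, 12 residual degrees of freedom). SE is the absolute log2 fold change over the square root of F. The fit was tested on simulated counts with 1 spread per gene for all groups. The KO libraries here differed more among themselves than the WT libraries, a case that the simulation did not cover. DESeq2 1.42.0, limma 3.58.1 (trend and voom), RLE scaling, no filter, only the compared groups, chromosomes 1, 8, 11, 16 and Y left out, single libraries and line A2 left out and replicate blocks were tried as alternatives. Positions come from GENCODE M21 (GRCm38).

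Group labels give KO lines and WT numbers that recur across stages. A line's deviations from its group mean correlated between stages in 9 of 9 comparisons (0.11 to 0.588), while those of a WT number did not (-0.0479 to 0.0659). KO and WT share no such names.

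Named genes are Esrrb, the 14 highest and 14 lowest called log2 fold changes (at least 5 CPM, no overlap), the 8 highest and 8 lowest differences in CPM, the 6 with the widest KO spread, the 5 highest and 5 lowest stage differences, up to 5 called members of each list, and a fixed panel. Eno1, Gjb1, Idh3g, Il17rd, Manba and Pdk1 lie outside this rule and were chosen after their values were seen. The comparison, its gene lists, the panel and the alternatives were chosen with earlier results of these data known. Some results are not reported here.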

Additional observations from a re-analysis of the deposited data

Results flagged for a closer look

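A difference between the KO effect at day 3 and the KO effect in EpiLC was found for 847 genes by the test of the difference itself (edgeR, adjusted p under 0.05). For the genes named in the text, the log2 fold change at day 3 minus that in EpiLC is given. Higher at day 3 were Rassf9 5.76, Slc35d3 5.70, Insc 5.46, Enpp2 5.21, Car14 4.74, Calca 3.69, Pde2a 3.48, Gap43 3.29 and Vrtn 3.29. After them came Rimbp2 2.84, Lef1 2.81, Tgm3 2.74, Ebf1 2.61, Egr1 2.35, Tnfrsf19 1.89, Foxd3 1.82, Dnmt3a 1.47 and Sox4 1.32. Smaller positive differences were Lin28a 1.27, Apobec1 1.12, Pou5f1 0.97, L1td1 0.84, Ldha 0.77, Sesn2 0.74, mt-Nd1 0.65, Uhrf1 0.50 and Ddx5 0.46. Lower at day 3 were Wnt7b -8.42, Rin3 -7.48, Thbd -7.46, Ly6a -7.25, Serpinb6b -7.20, Msc -6.85, Ism2 -6.67, Dner -5.13 and Fabp3 -4.84. Next were St8sia1 -4.71, Sox21 -3.57, Klf4 -2.74, Fabp5 -2.72, Pcsk1n -2.68, Hk1 -2.33, Ldhb -2.00, Lama1 -1.83 and Socs3 -1.72. Closest to 0 were Igfbp2 -1.44, Bcat1 -1.44, Pgm1 -1.16 and Idh2 -1.11. Without line A2, in which EpiLC held Esrrb transcript above WT, the calls of Klf4, Ly6a, Msc, Serpinb6b and Thbd ended (adjusted p = 0.186, 0.189, 0.111, 0.0611 and 0.62). Fitted values of Msc, Rassf9, Insc and Slc35d3 rest on groups without counts at day 3 and depend on the prior count. No group had enough libraries for a check of single outlying libraries.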

How the results depend on the processing

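Among the 150 named genes, 119 were called at day 3, and 63 of them stayed called on leaving out each day 3 library in turn. Over their 1752 values under alternatives, 1478 stayed past the threshold, 274 kept their direction and missed it, and 0 changed direction. Of the 31 named genes not called, 16 passed under at least 1 alternative, 12 of them with only the compared groups in the fit, 11 without line A2, 8 with the fixed replicate block and 5 with the random one. The cause was not tested for any change given here.

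Line A2 left out at all stages gave 2716 genes called (1372 higher, 1344 lower), of which 1245 were among the 1309, with 1912 genes for the difference from EpiLC, 85 for that from late PGCLC and 1910 day 3 calls shared with late PGCLC. The fixed replicate block gave 2184 called (1038 higher, 1146 lower, 1289 among the 1309), 1457 for the difference from EpiLC and 1588 shared. With a random replicate block 1326 genes were called at day 3 and 3 for the difference from late PGCLC. Leaving out 1 day 3 library gave 621 to 1463 called genes (265 to 720 higher, 356 to 743 lower), 361 to 702 for the difference from EpiLC and 527 to 961 shared with late PGCLC. The low counts were 816 (723 among the 1309) without KO A2 and 621 (619 among them) without WT 2. A minimum of 1 on the log2 scale left 484 called (212 higher, 272 lower) and 445 for the difference from EpiLC. DESeq2 gave 1277 and the fit of only the compared groups 456 for the difference from EpiLC, and for that from late PGCLC they gave 12 and 5. Day 3 counts within 1.5 times the 1309 came from RLE scaling (1326), no filter (1127), DESeq2 (1588), limma-trend (1382), only the day 3 groups (1708) and chromosomes 1, 8, 11, 16 and Y left out (1100).

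Log2 fold changes that changed sign were all of uncalled genes. The last range of each is over leaving out 1 day 3 library, and its value in the fit of all libraries stands in brackets. Ddx4 (-0.0281) was 0.146 without line A2 and -0.22 to 0.142. Dnd1 (0.236) was -0.0934 to 0.408. Eomes (-0.0736) was 0.0204 without line A2 and -0.398 to 0.125. Fgf5 (0.229) was -0.0625 by limma-trend, -0.105 with the random block and -0.883 to 0.574. Klf2 (-0.0107) was 0.202 without line A2 and -0.188 to 0.205. Klf5 (-0.059) was -0.136 to 0.0319. Ldha (0.0889) was -0.087 without line A2 and -0.0815 to 0.216. Prdm14 (0.00179) was -0.000145 with RLE scaling, -0.00121 without a low-count filter, -0.00842 by limma-trend, -0.00389 with only the compared groups in the fit, -0.0047 without line A2 and -0.0468 to 0.0326. Socs3 (0.0101) was -0.0189 by limma-trend, -0.0107 with the random block and -0.131 to 0.151. Tbx3 (-0.218) was -1.06 to 0.194. Tet1 (0.0107) was -0.00885 by limma-trend, -0.02 without chromosomes 1, 8, 11, 16 and Y and -0.0981 to 0.0646. Counts of 0 to 2 CPM, as for Cdx2, Aspa and Wnt5a, rest on few reads, and depth limits their fold changes.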
